A study of Mus musculus with 24 samples.

Results

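The nuclear genes that encode the subunits of oxidative phosphorylation were followed across lungs of mice exposed to diesel exhaust and treated with remote ischemic conditioning, pirfenidone or both. Members were the protein-coding rows whose symbol names a structural subunit of complex I (Nduf followed by a, b, c, s or v and a number), complex II (Sdha to Sdhd), complex III (Uqcr), complex IV (Cox4 to Cox8) or complex V (Atp5), with assembly factors left out. The rule found 84 members among 78275 rows of the count table: 36 of complex I, 4 of complex II, 8 of complex III, 18 of complex IV and 18 of complex V. The rule itself uses gene symbols and gene type and no measured values, but it was chosen with earlier results of these data known. It keeps Atp5s, a coupling factor rather than a subunit, and Ndufa4, which carries a complex I name but is found in complex IV. It leaves out genes of the complexes with other names, such as that of the ATP synthase inhibitor, Atpif1.

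Oxidative phosphorylation takes place in the inner mitochondrial membrane. Complexes I and II pass electrons from NADH and succinate to ubiquinone, complex III passes them on to cytochrome c, and complex IV passes them to oxygen, while complexes I, III and IV pump protons that drive the ATP synthase, complex V. The nuclear genome encodes most subunits, including all of complex II, and the mitochondrial genome encodes a small set of core subunits of the other complexes. Several complex IV subunits have a second isoform found mainly in heart and skeletal muscle or, for Cox8b and Cox7a1, also in brown fat, whereas Cox4i2 is known as the isoform of lung and oxygen-sensing cells.

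All 24 libraries came from lungs of male C57BL/6 mice, 20 weeks old, and each of the 8 groups had 3 libraries. Healthy mice without treatment are called C. RIC mice were healthy and had blood flow in the left leg blocked for 5 min and restored for 5 min, in 3 cycles, on 3 days per week for 4 weeks. Mice of the DE group breathed diesel exhaust for 30 min per day, 5 days per week, for about 8 weeks, which the labels name a model of pulmonary fibrosis. DE+PFD mice had the exhaust and oral pirfenidone, an antifibrotic drug, at 300 mg/kg/day on 6 days per week, dissolved in 0.5% carboxymethylcellulose. Conditioning came before the exhaust in RIC+DE mice, here called preconditioning, and alongside the exhaust in DE+RIC mice, here called perconditioning. The combination groups received all of exhaust, pirfenidone and conditioning, the latter before the exposure in RIC+DE+PFD and during the exposure in DE+PFD+RIC. No group carries a label of vehicle alone, chamber air alone or a sham cuff. Each library carries a date, in March for 9 libraries, in October for 14 and in November for 1. All RIC+DE libraries are from March and all DE libraries from October, so in that comparison date and treatment cannot be told apart within a month.

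Total counts ran from 3906807 to 18494156 per library. Values below are counts scaled to library size with TMM factors (CPM). Lung markers were high in all 24 libraries: Sftpc, the surfactant protein of alveolar type 2 cells, lay between 6973 and 68025 CPM, Ager of type 1 cells between 1239 and 7189 CPM, and the endothelial Pecam1 between 479 and 885 CPM. Some libraries stood apart in ways that touch the members. RIC+DE+PFD 1 held 39.6% of its counts in its 100 most abundant genes, against 18.1% to 29.7% in the others. RIC+DE 1 and RIC+DE 3 held the skeletal muscle genes Acta1 at 777 and 451 CPM and Ckm at 367 and 187 CPM, against at most 3.18 and 34.9 CPM elsewhere. DE 1 held the brown fat genes Ucp1 at 131 CPM and Cidea at 194 CPM. Libraries are replicates by label only. The labels do not tie each library to a separate mouse, so p-values measure the spread between libraries.

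Of the 84 members, 79 passed the filter on low counts among 17490 genes tested: 33 of complex I, all 4 of complex II, all 8 of complex III, 16 of complex IV and all 18 of complex V. Members that did not pass are not called silent. Ndufa13 and Cox8c were listed at 0 in all 24 libraries, Ndufb8 had 1 read in all, and Cox7b2 had 20 reads with at most 3 in a library. Ndufa13 and Ndufb8 encode complex I subunits. The sharing of reads between overlapping or near-identical gene models was not stated in the sources used here. Ndufb8, Ndufb2, Ndufb9 and Atp5g2 share exon bases on the same strand with another annotated gene, and so do the pair of Atp5o loci. Their counts, and those of subunits with processed pseudogenes, are uncertain.

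The promoters of members from 4 complexes are shown because most members moved together across the libraries, as described further on, and because nuclear respiratory factor 1 (NRF1) is a known regulator of this gene group. A window of 250 bases before to 50 bases after the start of the gene was available from RefSeq (GRCm38.p6) for 66 members. The NRF1 motif GCGCANGCG, searched on both strands in each window listed for a gene, was found for 20 of these 66 (30.3%), for 10.0% of 16491 coding genes and for 13.7% of the 11245 coding genes that passed the filter on low counts. The holders were 8 of 32 members of complex I, 2 of 3 of complex II, 2 of 5 of complex III, 1 of 13 of complex IV and 7 of 13 of complex V, and in 14 of the 20 the motif lay before the start. The 250 bases before the start follow for Ndufb4 of complex I (chr16:37654369-37654618, minus strand), Sdha of complex II (chr13:74350241-74350490, minus strand), Cox6a1 of complex IV (chr5:115348959-115349208, minus strand) and Atp5h of complex V (chr11:115419920-115420169, minus strand), with the NRF1 motif in capitals. Cox8b (chr7:140900447-140900696, minus strand), the member with the widest spread across libraries, is added for contrast and held 0 matches to the motifs searched. Holding 0 matches is not particular to Cox8b. The windows of Cox5b and Ndufb3 also held 0, and the correlation of each with the other members, described further on, was 0.98.
Ndufb4: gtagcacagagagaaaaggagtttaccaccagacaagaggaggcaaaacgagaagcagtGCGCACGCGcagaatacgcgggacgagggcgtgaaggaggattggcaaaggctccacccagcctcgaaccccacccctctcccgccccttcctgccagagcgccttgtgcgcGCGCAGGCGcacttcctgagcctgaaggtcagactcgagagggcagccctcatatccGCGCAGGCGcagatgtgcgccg
Sdha: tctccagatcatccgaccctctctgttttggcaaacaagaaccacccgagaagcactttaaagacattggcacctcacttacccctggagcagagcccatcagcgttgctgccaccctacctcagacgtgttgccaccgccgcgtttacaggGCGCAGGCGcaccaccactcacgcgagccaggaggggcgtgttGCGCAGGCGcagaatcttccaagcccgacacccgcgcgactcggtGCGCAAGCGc
Cox6a1: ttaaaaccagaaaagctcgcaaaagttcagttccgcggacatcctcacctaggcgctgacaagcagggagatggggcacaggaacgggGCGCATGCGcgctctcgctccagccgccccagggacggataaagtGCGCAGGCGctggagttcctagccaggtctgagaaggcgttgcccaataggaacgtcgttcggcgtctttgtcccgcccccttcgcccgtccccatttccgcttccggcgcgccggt
Atp5h: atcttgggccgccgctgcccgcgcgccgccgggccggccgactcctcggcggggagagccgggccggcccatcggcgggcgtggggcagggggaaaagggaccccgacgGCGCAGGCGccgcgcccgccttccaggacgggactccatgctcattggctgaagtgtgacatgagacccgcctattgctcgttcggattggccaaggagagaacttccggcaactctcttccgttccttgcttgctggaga
Cox8b: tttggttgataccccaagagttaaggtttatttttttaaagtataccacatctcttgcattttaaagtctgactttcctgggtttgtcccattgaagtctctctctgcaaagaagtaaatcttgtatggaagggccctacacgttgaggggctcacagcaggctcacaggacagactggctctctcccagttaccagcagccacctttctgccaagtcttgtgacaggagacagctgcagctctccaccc

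Ndufb4 and Sdha each held 3 NRF1 matches before the start, Cox6a1 held 2 and Atp5h held 1. The ETS core CCGGAAG was found in 16 of the 66 windows (24.2%, against 13.4% of coding genes and 18.0% of those tested). The YY1 motif AAGATGGCG lay in 7 (10.6%, against 2.25% and 3.09%), the CREB motif TGACGTCA in 4 (6.06%, against 2.64% and 3.33%) and the motif TCAAGGTCA of estrogen-related receptors in 2 (3.03%, against 0.388% and 0.320%). The SP1 box GGGCGG was the one motif with a lower share, in 26 windows (39.4%, against 51.0% and 65.5%). All motifs were searched on both strands, matches of 1 motif were counted without overlap, different motifs may overlap, and a match is a description of the letters. Sdha and Ndufb4 have equal numbers of matches but different patterns across libraries, since Sdha is among the members that moved least with the others.

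Levels can be compared between genes only per length. On counts scaled to library size and to the length of the principal transcript (RPKM), the highest member was Cox4i1, the ubiquitous isoform of the regulatory subunit IV of complex IV, at 521 ± 323 RPKM (SD, n = 24). Cox6a1 followed at 392 ± 235, Atp5e (epsilon subunit of the ATP synthase) at 389 ± 247 and Atp5b (catalytic beta subunit) at 342 ± 75.8. These 4 neighbours in the order differ by less than their spread over libraries. Most members move together across libraries, so that spread does not measure how stable the order is. Cox4i1 lay above Cox6a1 in each of the 24 libraries. In complex I the highest tested levels were those of Ndufa4 at 256 ± 147 and Ndufa7 at 212 ± 126 RPKM, in complex III that of Uqcrh, the hinge protein, at 297 ± 165, and in complex II that of the iron-sulfur subunit Sdhb at 105 ± 40.8. Sdha, the flavoprotein of complex II, stood at 85.7 ± 12.1 and Ndufs1, the largest iron-sulfur subunit of complex I, at 24.8 ± 4.60 RPKM. At the low end among tested members stood Atp5s at 5.79 ± 1.5, Ndufb2 at 1.64 ± 0.279 and the second Atp5o locus at 1.11 ± 0.565 RPKM.

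Most members varied together from library to library. The correlation of each tested member with the mean of the others over the 24 libraries had a median of 0.95, and it was above 0.9 in 60 of 79, whereas for the other genes tested the median correlation with the member mean was -0.04. Libraries share their depth and scaling with all genes in them, so this is a description without a test. Without the 2 libraries farthest from the median, RIC+DE+PFD 1 and DE+PFD+RIC 2, the median over members was 0.90. Median values by complex were 0.95 for I, 0.91 for II, 0.97 for III, 0.95 for IV and 0.95 for V.

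**Figure D1:**
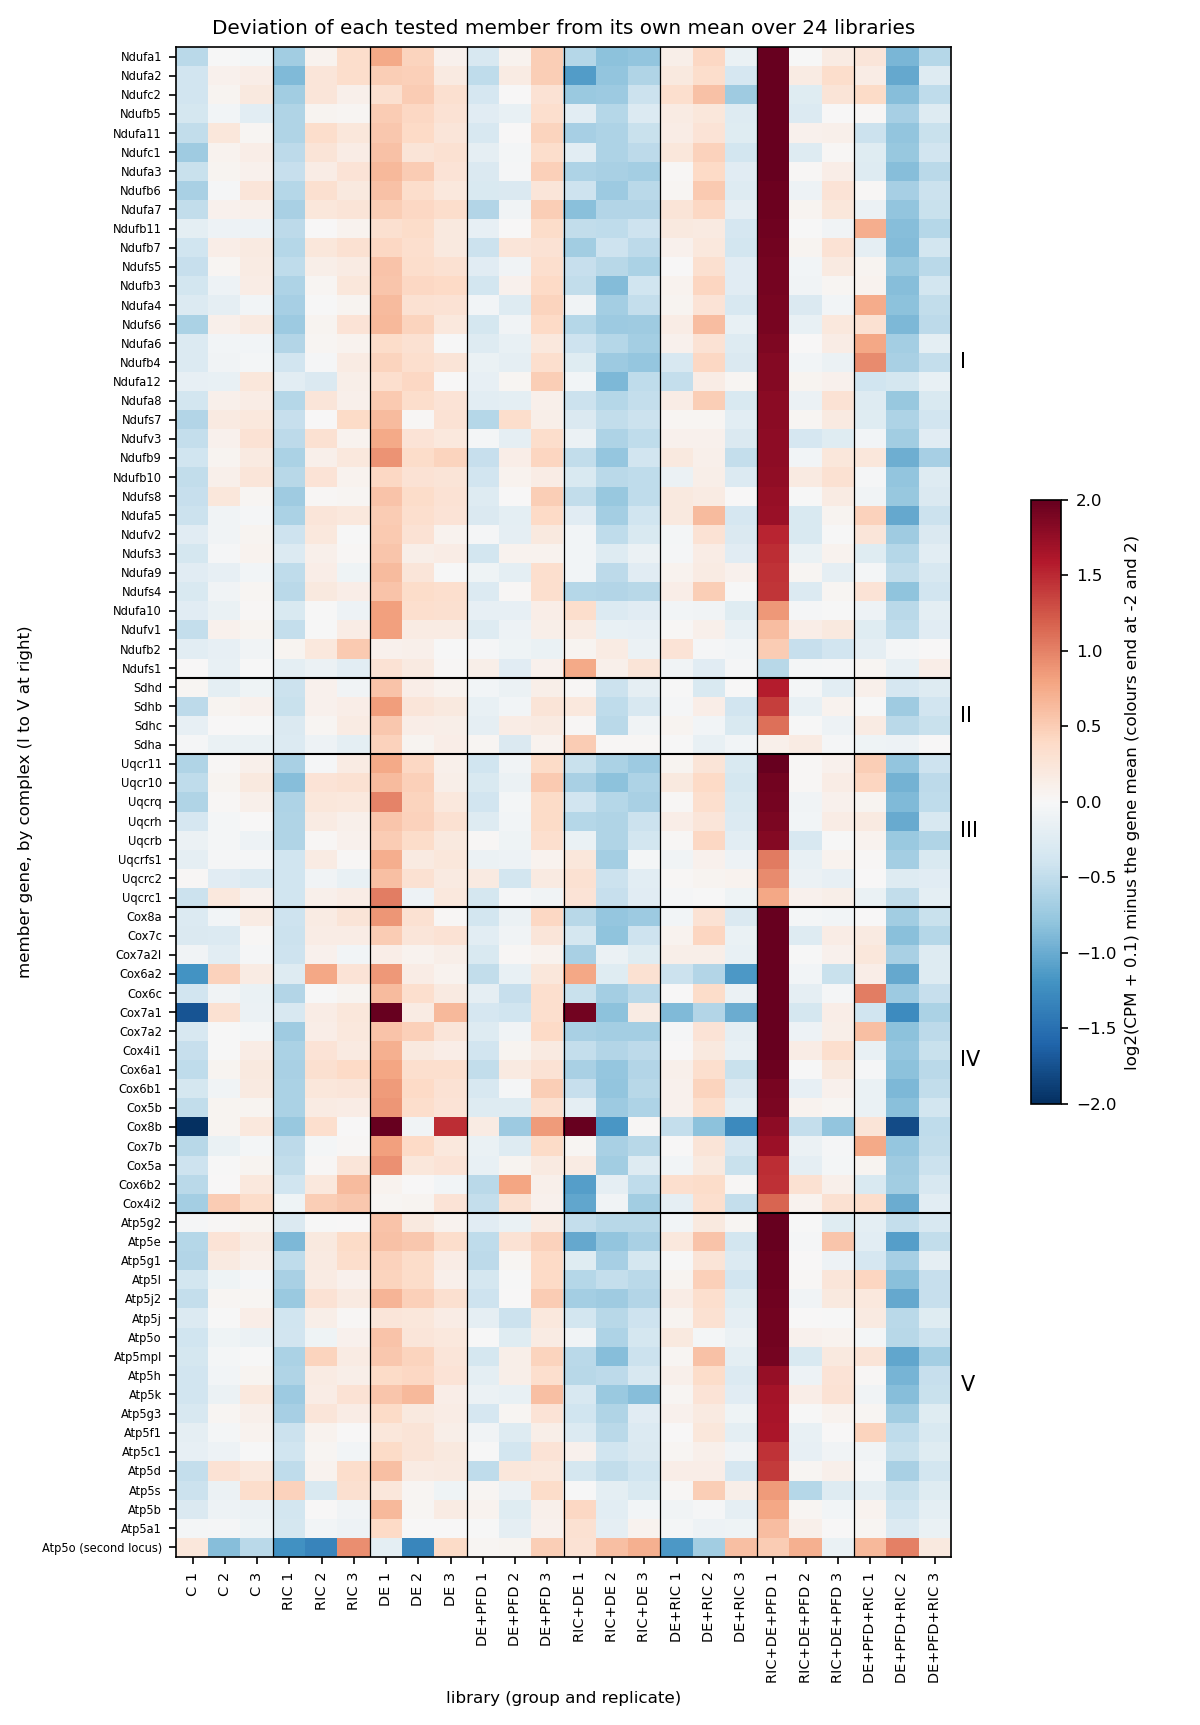
Each row is a tested member and each column a library. Colour gives log2(CPM + 0.1) minus the mean of that gene over 24 libraries, and rows are sorted within a complex by the value in RIC+DE+PFD 1. Nearly all rows lie above their mean in RIC+DE+PFD 1 and below it in DE+PFD+RIC 2. The exceptions are Ndufs1, low in the former, and the second Atp5o locus, high in the latter. Cox8b and Cox7a1 are highest in DE 1, Ndufs1 and Sdha in RIC+DE 1, and Ndufb2 in RIC 3.

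Few members departed from the shared pattern. Ndufs1 had a correlation of -0.36 with the other members, the second Atp5o locus -0.11, Sdha 0.25 and Ndufb2 0.41. Tissue isoforms and Atp5s followed, at 0.60 for Cox8b, 0.62 for Atp5s, 0.66 for Cox7a1, 0.73 for Cox4i2, 0.74 for Cox6a2 and 0.74 for Cox6b2. Atp5a1, the alpha subunit of the ATP synthase, stood at 0.77. Members with long transcripts varied less than members with short ones. In RIC+DE+PFD 1 the median deviation from the gene means was 1.92 on the log2 scale for the 49 members with a principal transcript under 1000 bases, 1.48 for the 23 members from 1000 to 2000 bases and 0.62 for the 7 longest. In DE+PFD+RIC 2 the same medians were -0.84, -0.65 and -0.28. Members have shorter transcripts than other genes, with a median exon length of 1550 bases against 4040 over the genes tested, and the part of transcript length in the shared pattern was measured only through the length-corrected values given below.

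The mean deviation of all 79 members (log2 CPM, each gene minus its own mean over 24 libraries) was highest in RIC+DE+PFD 1, at 1.64, where members made up 1.68% of all counts. DE 1 followed at 0.62 and 1.31% of counts. The lowest values were -0.70 in DE+PFD+RIC 2 (0.581% of counts), -0.55 in RIC+DE 2, -0.51 in RIC 1 and -0.41 in C 1. Group means were -0.12 ± 0.25 (SD, n = 3) in C, -0.08 ± 0.37 in RIC and 0.37 ± 0.22 in DE. In bulk tissue, fewer cells of a type and less RNA per cell cannot be told apart.

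**Figure D2:**
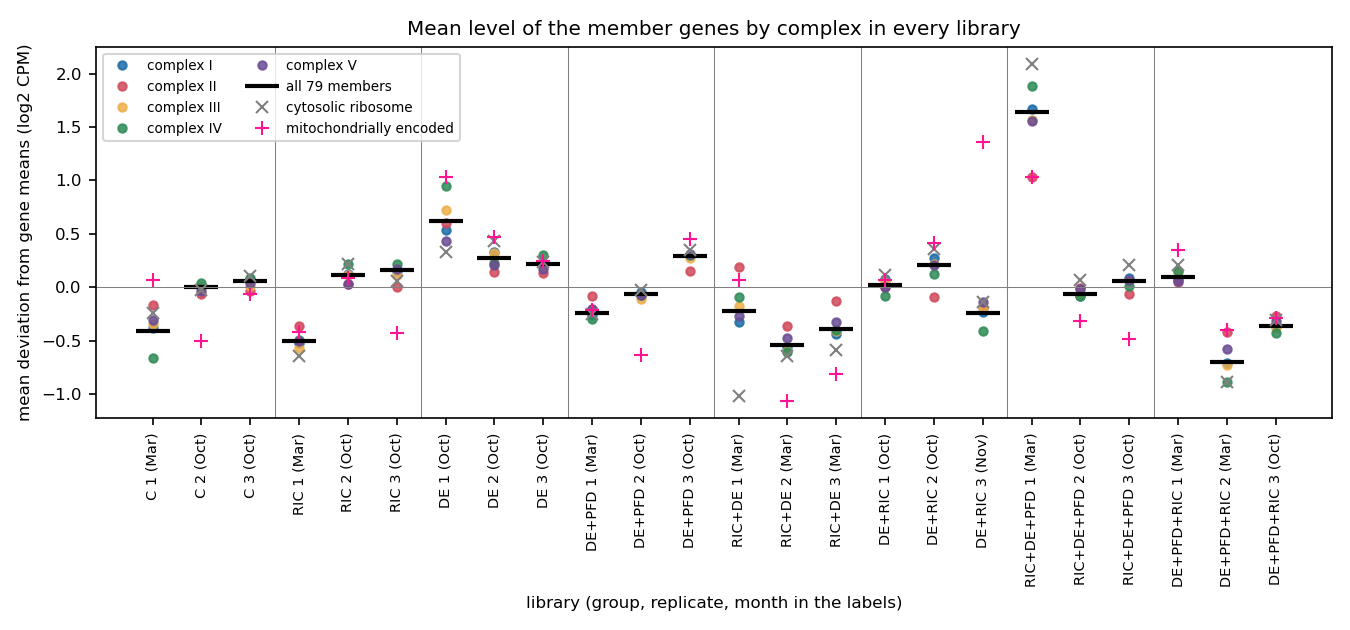
Points give the mean deviation from the gene means (log2 CPM) in each of 24 libraries for each complex. Bars give all 79 members, grey crosses the cytosolic ribosomal proteins and pink crosses the mitochondrially encoded subunits. RIC+DE+PFD 1 at 1.64 and DE 1 at 0.62 are the highest values for the members, and the complexes lie close to each other in most libraries.

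Other gene groups followed the same library pattern. Over the 24 libraries the member mean had a Pearson r of 0.98 (Spearman rho 0.96) with 44 tested assembly factors of the complexes, 0.97 (0.96) with 76 mitochondrial ribosomal proteins and 0.94 (0.93) with 74 cytosolic ribosomal proteins. Without the 2 farthest libraries the r for the cytosolic ribosomal proteins was 0.84, and it was 0.96 within the 9 March libraries and 0.85 within the 14 October libraries. The 10 tested mitochondrially encoded subunits, transcribed by a separate polymerase, followed less closely, with r 0.61 (rho 0.62), 0.54 without the 2 farthest libraries, 0.82 within March and 0.80 within October. In DE+RIC 3, the November library, the mitochondrially encoded mean was 1.36 while the member mean was -0.24. The 13 regulators of mitochondrial biogenesis, among them Ppargc1a, Nrf1, Tfam and Esrra, had r -0.69 (rho -0.57), which was -0.34 without the 2 farthest libraries, -0.88 within March and 0.22 within October. The slope of all genes on transcript length moved with the members too: the Spearman correlation of gene deviation with length in a library had r -0.84 (rho -0.90) with the member mean, -0.87 without the 2 farthest libraries, -0.98 within March and -0.79 within October. Its part in the pattern was not tested.

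By the rule for likeness, the coding genes outside every list with the highest Pearson correlation with the member mean over 24 libraries were Eif4ebp1 at 0.98, Txn2 at 0.97, Hsd17b10 at 0.97, Mpc2 at 0.97, Grpel1 at 0.96, Ninj1 at 0.96, Pam16 at 0.96 and Tmem242 at 0.96. Txn2 encodes the mitochondrial thioredoxin, Mpc2 a subunit of the mitochondrial pyruvate carrier, and Grpel1 and Pam16 encode parts of the mitochondrial protein import motor.

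The first comparison asked how the members stood in lungs after diesel exhaust. Their median log2 difference between DE and C was 0.50, against 0.00 over all 17490 genes tested, and 78 of 79 members lay above 0 (49.9% of all genes). In 61 of 79 members each DE library was above each C library, against 7.61% of all genes. By complex the medians were 0.50 for I, 0.43 for II, 0.57 for III, 0.63 for IV and 0.42 for V. With edgeR's quasi-likelihood test 0 members passed an adjusted p of 0.05 (0% of all genes called), and the smallest adjusted p of a member was 0.988. In the same test 5 members had an unadjusted p under 0.05, all higher in DE (1.95% of all genes), while DESeq2 also called 0 members. In each of the 9 comparisons made here edgeR called 0 of the 17490 genes tested, so 0 members called is no trait of the members.

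Ndufa10, an accessory subunit of complex I, was read at 142, 100 and 99.5 CPM in the DE libraries and at 68.5, 72.6 and 81.2 CPM in C. The groups did not overlap, the log2 difference was 0.64 ± 0.24 (SE), and the adjusted p from edgeR was 0.988. Uqcrc2, a core protein of complex III, stood at 172, 140 and 129 CPM in DE and at 115, 97.3 and 93.4 in C, a log2 difference of 0.64 ± 0.24 without overlap. Sdhb was read at 204, 134 and 131 CPM in DE against 79.6, 119 and 121 in C, a log2 difference of 0.57 ± 0.33 without overlap. DE 1 is the high library in each of these genes. Sdha was read at 339, 255 and 271 CPM in DE and at 241, 225 and 225 in C, with a smaller log2 difference of 0.33 ± 0.17. Ndufs1 was the lowest of complex I, at 79.8, 73.3 and 66.3 CPM in DE against 65.1, 58.6 and 64.5 in C (log2 difference 0.19 ± 0.18), and Ndufa4 the highest, with a log2 difference of 0.70 ± 0.44. In complex III the highest log2 difference was that of Uqcrq at 0.74 ± 0.42, and in complex V that of Atp5o, which encodes the oligomycin-sensitivity subunit, at 0.64 ± 0.34.

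Within complex IV the extremes were tissue isoforms. Cox8b was read at 131, 8.94 and 26.3 CPM in the DE libraries and at 1.73, 9.77 and 10.9 CPM in C. The groups overlapped, since DE 2 lay below 2 of the C libraries, and the log2 difference was 2.94 ± 0.98 (adjusted p 0.988, edgeR). Cox7a1 stood at 57.8, 9.83 and 13.9 CPM in DE and at 2.60, 10.9 and 8.10 in C, a log2 difference of 1.97 ± 0.74 with overlap. Without DE 1 the differences were 1.27 for Cox8b and 0.75 for Cox7a1. Its ubiquitous partner Cox7a2 was at 129, 121 and 103 CPM in DE and at 69.4, 86.3 and 85.1 in C. Cox4i2 was the lowest member, at 69.3, 70.2 and 81.2 CPM in DE against 41.8, 96.0 and 87.0 in C, a log2 difference of -0.07 ± 0.36.

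Markers of fat moved with Cox8b and Cox7a1. Ucp1, the uncoupling protein of brown fat, was read at 131, 1.34 and 26.5 CPM in the DE libraries, at 36.2 CPM in RIC+DE 1 and at no more than 5.75 CPM elsewhere. Of 5 brown fat markers 3 were tested, Elovl3 had 7 reads in all libraries, and the summed level of the list ran from 11.9 to 334 CPM in DE and from 4.58 to 14.4 CPM in C. The 7 white fat markers summed to 301 to 2428 CPM in DE and 134 to 291 CPM in C. Over the 24 libraries Cox8b had a Pearson r of 0.86 (rho 0.86) with the white fat list and 0.81 (rho 0.67) with the brown fat list, and Cox7a1 had 0.74 (0.64) and 0.67 (0.43). With the cardiac muscle list the values were 0.71 (0.63) for Cox8b and 0.70 (0.56) for Cox7a1, and with the skeletal muscle list 0.39 (0.75) and 0.44 (0.77). The part of these cells in the level of Cox8b and Cox7a1 was not tested. Without DE 1 and RIC+DE+PFD 1, an alternative chosen after seeing the data, the members' median difference between DE and C was 0.24. All members but Cox8b and Cox7a1 of complex IV lay at or below 0.80 in the comparison with all libraries.

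**Figure D3:**
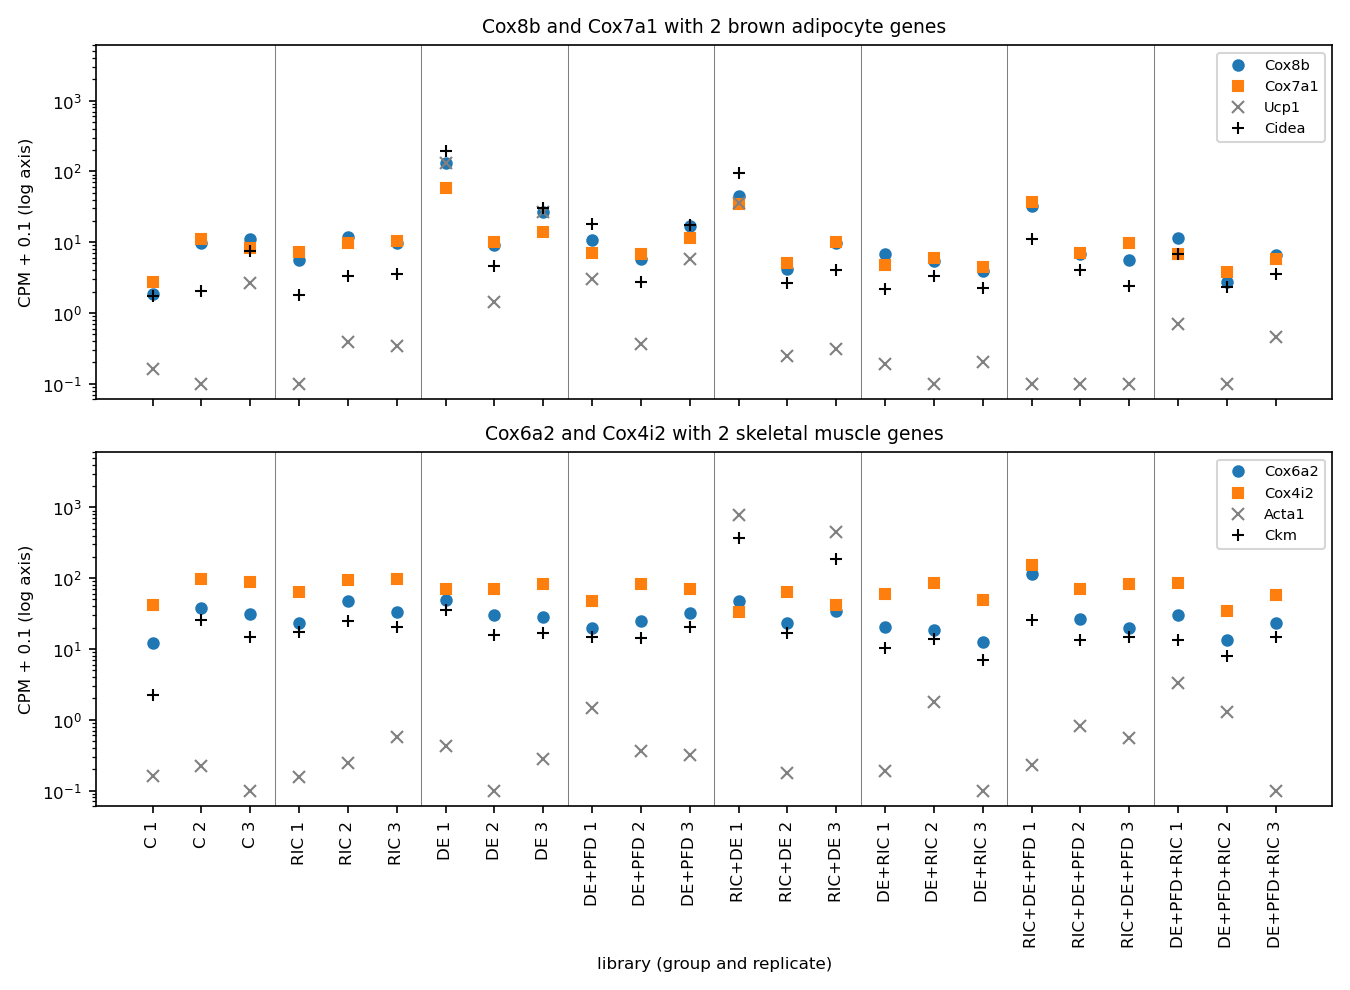
CPM + 0.1 of tissue isoforms on a log axis in 24 libraries. The upper panel shows Cox8b and Cox7a1 with the brown fat genes Ucp1 and Cidea, all highest in DE 1, and the lower panel shows Cox6a2 and Cox4i2 with the skeletal muscle genes Acta1 and Ckm, which reach 777 and 367 CPM in RIC+DE 1.

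The October libraries gave the same sign for DE minus C, with a median of 0.36 over the members and 61 of 79 members not overlapping (12.8% of all genes with these 5 libraries). March held a single C library and no DE library, so no value within March could be had. With the trend on transcript length removed the median was 0.37.

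Conditioning without exhaust was compared with untreated controls. Between RIC and C their median log2 difference was 0.04 (-0.01 over all genes), 56 members lay above 0 (49.0% of all genes) and 23 below, and 1 member did not overlap between the groups, higher in RIC (2.23%). This was Ndufb2, at 7.38, 8.17 and 10.2 CPM in RIC against 6.06, 6.27 and 6.70 in C, a log2 difference of 0.43 ± 0.23. The highest in complex IV was Cox6a2, the heart and muscle isoform of subunit VIa, at 22.8, 46.7 and 32.8 CPM in RIC and 11.9, 37.6 and 30.6 in C, a log2 difference of 0.36 ± 0.53. With edgeR 0 members passed (smallest adjusted p 1.00) and 0 had an unadjusted p under 0.05 (0.577% of all genes lower), while DESeq2 called 0 as well. Both groups hold 1 March library, and RIC 1 and C 1 were the lowest of their groups, with member means of -0.51 and -0.41. With the October libraries alone, 2 against 2, the median was 0.12 and 36 members did not overlap, higher in RIC (16% of all genes), with 1 lower (15.8%), and without RIC 1 the median was 0.33. It was -0.13 without C 1.

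Pirfenidone during exhaust was compared with exhaust alone. The next comparisons, all set against DE, share the DE libraries, DE 1 among them, so their directions are not independent of each other or of DE minus C. The members' median log2 difference between DE+PFD and DE was -0.41 (-0.01 over all genes), and 77 of 79 lay below 0 (50.9% of all genes). In 14 members each DE+PFD library lay below each DE library (5.28%). With edgeR 0 members passed, and 3 had an unadjusted p under 0.05, all lower in DE+PFD (1.61%): Ndufa10, Cox8b and Cox7a1. DESeq2 called 0 members.

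Ndufa10 was read at 71.1, 71.5 and 87.5 CPM in DE+PFD, below each of the DE libraries (log2 difference -0.59 ± 0.24, adjusted p 1.00 with edgeR). Cox8b stood at 10.6, 5.61 and 16.9 CPM (log2 difference -2.30 ± 0.98) and Cox7a1 at 6.95, 6.67 and 11.2 CPM (-1.72 ± 0.76). Both groups overlap for these genes, and without DE 1 the differences were -0.63 for Cox8b and -0.51 for Cox7a1. Sdhb was the lowest of complex II, at 103, 109 and 136 CPM, a log2 difference of -0.45 ± 0.34, and Uqcrq of complex III had -0.59 ± 0.42 and Atp5o of complex V -0.48 ± 0.34. Ndufs1 had -0.14 ± 0.18. Cox6b2, the testis isoform of subunit VIb, stood above 0 at 0.22 ± 0.36. Without DE 1 and RIC+DE+PFD 1 the median over members was -0.14, within October it was -0.25, without DE+PFD 1 it was -0.25 and without DE+PFD 3 it was -0.66. Lymphocyte markers had a median difference of -0.97 (7 of 7 below 0, 5 at an unadjusted p under 0.05), white fat markers -0.82 (6 of 7 below 0) and brown fat markers -2.64 (3 of 3 tested), and their part was not tested.

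Preconditioning before exhaust gave the largest negative median among the 9 comparisons. Between RIC+DE and DE the members' median log2 difference was -0.98 (0.00 over all genes), 77 of 79 lay below 0 (49.7%), and in 63 each RIC+DE library lay below each DE library (20.6% of all genes). Medians by complex were -1.0 for I, -0.65 for II, -1.10 for III, -1.14 for IV and -0.90 for V. With edgeR 0 members passed (0% of all genes), the smallest adjusted p was 0.274, and 45 members had an unadjusted p under 0.05, all lower (9.47% of all genes). DESeq2 called 0 members. In a fit on the libraries of both groups alone 53 members passed, but that fit has no term for the date. The share of all genes called in that fit is not given here, so the count does not set the members apart.

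Ndufa1, a small membrane subunit of complex I, was read at 34.6, 29.2 and 29.9 CPM in RIC+DE and at 87.6, 70.0 and 54.9 in DE. The groups lay well apart, with a log2 difference of -1.36 ± 0.54 and an adjusted p of 0.274 (edgeR). Uqcr11, the smallest subunit of complex III, stood at 68.5, 59.7 and 56.3 CPM against 158, 124 and 100 in DE (-1.26 ± 0.55). Atp5g2, which encodes the c-ring subunit of the ATP synthase, stood at 61.9, 58.5 and 58.9 CPM against 128, 99.4 and 90.5 (-1.23 ± 0.46). Sdhd, a membrane anchor of complex II, had a log2 difference of -0.81 ± 0.37 and no member of complex II was lower. Core subunits with long transcripts stood elsewhere. Sdha was read at 350, 250 and 251 CPM in RIC+DE and at 339, 255 and 271 CPM in DE, a log2 difference of -0.03 ± 0.20 with overlap, and Ndufs1 stood at 110, 70.0 and 77.8 CPM against 79.8, 73.3 and 66.3, a difference of 0.32 ± 0.21. The differences without RIC+DE+PFD 1 were -0.74 for Ndufa1, -0.64 for Uqcr11, -0.67 for Atp5g2 and -0.42 for Sdhd.

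Skeletal muscle genes were high in RIC+DE 1 and RIC+DE 3, and fat genes in RIC+DE 1 only of this group. Summed skeletal muscle markers ran from 29.6 to 2638 CPM in RIC+DE and from 31.1 to 55.1 CPM in DE, the low RIC+DE library being RIC+DE 2, and 7 of 7 tested had an unadjusted p under 0.05. Cox6a2 was read at 46.9, 23.0 and 33.7 CPM in RIC+DE and at 49.6, 30.1 and 28.6 in DE (log2 difference -0.07 ± 0.65). Its share of the summed Cox6a1 and Cox6a2 levels, as CPM per principal transcript length, reached 23.5% in RIC+DE 1. The median share was 9.97% over all libraries. Cardiac muscle markers had a median difference of 0.59 between RIC+DE and DE (9 of 9 above 0, 3 at an unadjusted p under 0.05). Over the 24 libraries Cox6a2 had a Pearson r of 0.66 (rho 0.68) with the cardiac list and 0.35 (rho 0.74) with the skeletal muscle list. The part of these cells in its level was not tested. Cox8b stood at 44.6, 4.14 and 9.51 CPM in RIC+DE (log2 difference -1.53 ± 1.13, with overlap), its highest value falling in the library with 36.2 CPM of Ucp1. The difference was 0.14 without DE 1 and -3.03 without RIC+DE 1. As groups, the white and brown fat lists had median differences of -0.97 and -0.98. RIC+DE 2, in which the skeletal muscle genes were low, had a member mean of -0.55, below that of RIC+DE 1 at -0.22 and RIC+DE 3 at -0.39.

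The date enters this comparison through the libraries of other groups. The fitted October minus March term had a median of -0.10 over the members, with 0 members past an adjusted p of 0.05 (0.00572% of all genes, edgeR) and 0 at an unadjusted p under 0.05 (7.73% of all genes lower). Without RIC+DE+PFD 1, a March library, this term was 0.35 with 18 members called (share of all genes called not given here). In the same fit the median difference between RIC+DE and DE was -0.48. With the trend on transcript length removed it was -0.52, and without DE 1 and RIC+DE+PFD 1 it was -0.38. The cytosolic ribosomal proteins had a median of -1.29 in this comparison, with 72 of 74 at an unadjusted p under 0.05, and the 10 mitochondrially encoded subunits had -1.45. Marker lists of other cells also stood below 0 in the median: -1.28 for erythroid cells (5 of 6 at an unadjusted p under 0.05), -1.20 for lymphocytes (5 of 7), -0.90 for club and ciliated cells (2 of 6), -0.57 for alveolar type 2 cells (3 of 8), -0.60 for type 1 cells (0 of 6) and -0.61 for alveolar macrophages (2 of 8), while fibroblast markers had 0.39 and endothelial markers -0.010. Their part in the members' difference was not tested.

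Perconditioning during exhaust was set against the same DE libraries. Between DE+RIC and DE the median over members was -0.22 (0.01 over all genes), 73 lay below 0 (48.9%), and in 26 each DE+RIC library lay below each DE library (6.05%). DE+RIC 3 is the only November library, and November had its own date term. The fitted differences, SE and p-values thus take the DE+RIC level from DE+RIC 1 and DE+RIC 2 only. The median was -0.32 with DE+RIC 3 counted as October. CPM values and overlaps use all libraries of the group. With edgeR 0 members passed (smallest adjusted p 1.00), 3 had an unadjusted p under 0.05, all lower (2.56%), and DESeq2 called 0. They were Cox8b, Cox7a1 and Ndufa10. Cox8b stood at 6.75, 5.30 and 3.84 CPM in DE+RIC, below each DE library (log2 difference -3.20 ± 1.17), Cox7a1 at 4.73, 5.86 and 4.35 CPM, also below each (-2.38 ± 0.89), and Ndufa10 at 77.4, 76.1 and 67.4 CPM (-0.57 ± 0.26). Without DE 1 the differences were -1.53 for Cox8b and -1.17 for Cox7a1, and the median over members was -0.11. Brown fat markers summed to 6.13 to 9.20 CPM and white fat markers to 120 to 218 CPM in DE+RIC. Cardiac muscle markers had a median difference of -1.30 from DE (9 of 9 below 0, 3 at an unadjusted p under 0.05). The part of these cells was not tested. In complex II Sdhd was lowest at -0.43 ± 0.34, in complex III Uqcrc1 at -0.48 ± 0.31, and Cox6b2 was the highest member of complex IV at 0.34 ± 0.39.

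Preconditioning with pirfenidone gave differences whose sign rested on a single library. Between RIC+DE+PFD and DE the median over members was 0.40 (0.04 over all genes), and 67 lay above 0 (54.2%). RIC+DE+PFD 1 was also high in markers of other cells, with mean deviations of 0.93 for club and ciliated, 0.67 for alveolar type 1, 0.45 for type 2, 0.85 for alveolar macrophage and 1.03 for erythroid markers, and low in fibroblast markers at -0.80. Its summed club and ciliated markers reached 171776 CPM, against 43784 to 44087 CPM in the other libraries of the group, and their part in the members' level was not tested. Without RIC+DE+PFD 1 the median was -0.39, and in 54 members both remaining libraries lay below each DE library (15.5% of all genes), against 1 member, Ndufs1 (6.42%), with it. Another member, Cox6b2, lay above each DE library (5.55%). Ndufa1 shows the pattern, at 233, 51.5 and 57.8 CPM in RIC+DE+PFD, and so does Cox4i1 at 1479, 399.6 and 455 CPM. Ndufs1 went the other way in that library, at 44.0, 62.9 and 64.2 CPM, with a log2 difference from DE of -0.34 ± 0.18. With edgeR 0 members passed (smallest adjusted p 0.504), 1 member had an unadjusted p under 0.05 and was higher (4% of all genes), Cox6b2, at 65.8, 29.2 and 25.4 CPM against 25.0, 23.8 and 23.0 in DE (0.86 ± 0.38). DESeq2 called 0. The difference for Cox6b2 was 0.18 without RIC+DE+PFD 1. Cox8b had a log2 difference of -1.92 ± 1.04, which was -0.24 without DE 1 and -3.21 without RIC+DE+PFD 1.

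Against DE+PFD the same group had a median of 0.79 (0.02 over all genes), 77 members above 0 (51.4%) and 31 at an unadjusted p under 0.05, all higher (10.7%). Groups did not overlap in 3 members, all higher (5.88%). Cox4i1 had the highest difference, 1.11 ± 0.39, at 278, 377 and 411 CPM in DE+PFD, and Ndufb6 the highest of complex I, 1.07 ± 0.41, both with an adjusted p of 0.248 (edgeR). Ndufs1 had -0.20 ± 0.18. Without RIC+DE+PFD 1 the median over members was -0.12, and the differences were 0.12 for Cox4i1 and 0.029 for Ndufb6. With edgeR 0 members passed and with DESeq2 0.

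Perconditioning with pirfenidone gave lower values against DE. Between DE+PFD+RIC and DE the median over members was -0.75 (-0.01 over all genes), 78 of 79 lay below 0 (51.1%), and in 50 each DE+PFD+RIC library lay below each DE library (12.8%). Medians by complex were -0.75 for I, -0.64 for II, -0.75 for III, -0.89 for IV and -0.66 for V. With edgeR 0 members passed (smallest adjusted p 0.526), and 25 had an unadjusted p under 0.05, all lower (4.35%). DESeq2 called 0. Without RIC+DE+PFD 1, which enters through the date term, the median was -0.43. Lymphocyte markers had a median difference of -1.09, with 7 of 7 below 0 and 6 at an unadjusted p under 0.05, erythroid markers -0.65 (6 of 6 below 0), white fat markers -1.51 (7 of 7) and brown fat markers -4.40 (3 of 3 tested). Their part in the members' difference was not tested.

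Ndufa10 was read at 74.2, 54.8 and 70.1 CPM in DE+PFD+RIC, below each DE library, with a log2 difference of -0.81 ± 0.25 (adjusted p 0.526, edgeR). Ndufa3, an accessory subunit of complex I, stood at 74.5, 49.5 and 61.7 CPM against 141, 126 and 108 in DE (-1.08 ± 0.42). Sdhb stood at 114, 69.6 and 87.9 CPM (-0.83 ± 0.37) and Uqcrq at 96.3, 50.4 and 65.3 CPM (-1.04 ± 0.46), each below all DE libraries. Atp5e was the lowest of complex V at -0.95 ± 0.47. Cox8b stood at 11.3, 2.64 and 6.59 CPM (-3.05 ± 1.08) and Cox7a1 at 6.63, 3.64 and 5.63 CPM (-2.39 ± 0.83), differences that were -1.39 and -1.19 without DE 1. Ndufs1 had -0.11 ± 0.19. The group was wide, with member means of 0.09, -0.70 and -0.36, and its highest library overlapped with DE in Ndufa4 at 237 CPM and Cox6c at 325 CPM. Against DE+PFD the median was -0.36 (0.00 over all genes), 76 lay below 0 (50.3%), 5 did not overlap, all lower (5.36%), and 0 had an unadjusted p under 0.05 (2.12% of all genes lower). The lowest of their complexes there were Ndufa3 at -0.66 ± 0.39, Sdhb at -0.38 ± 0.34 and Uqcrb at -0.63 ± 0.38. The median was -0.61 without DE+PFD 1 and -0.16 without DE+PFD 3. With edgeR (smallest adjusted p 0.903) and DESeq2 0 members passed.

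**Figure D4:**
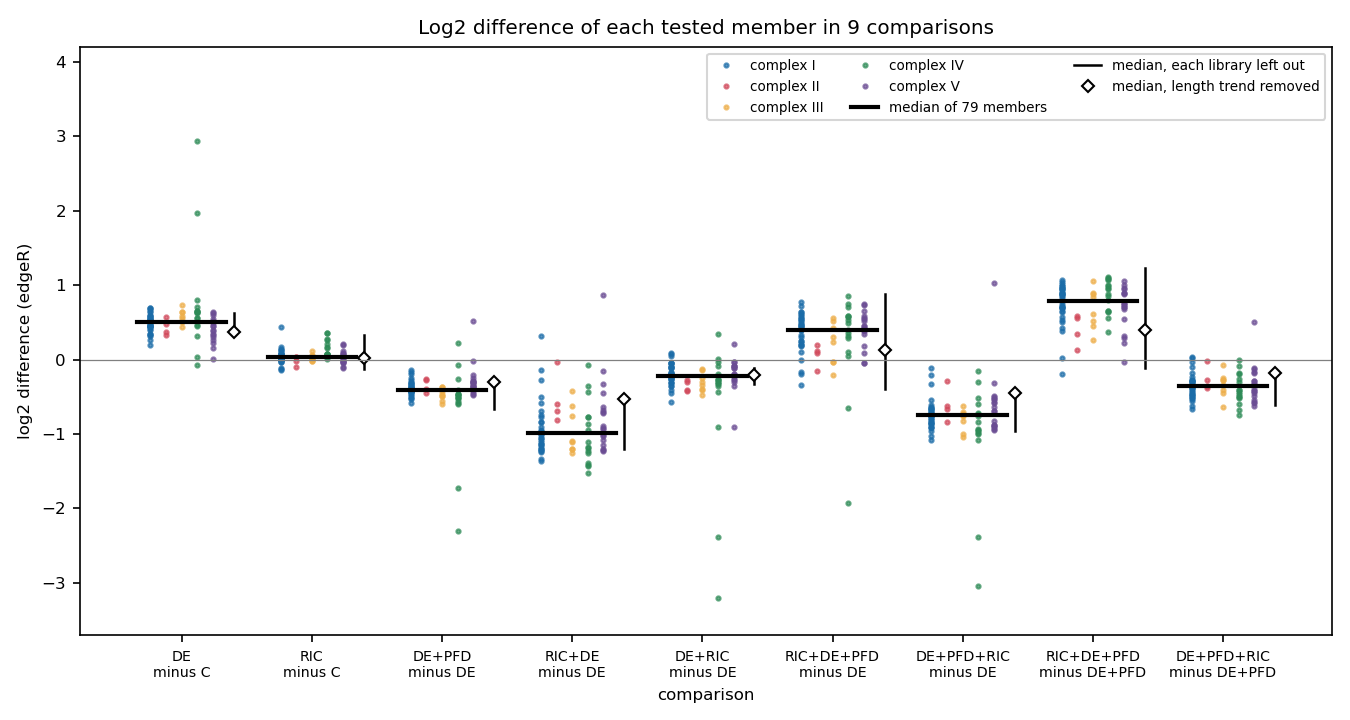
Points are the log2 differences (edgeR) of the 79 tested members in 9 comparisons, coloured by complex. Thick lines mark their median, thin lines the range of that median when each of the 24 libraries is left out, and diamonds the median after the trend on transcript length was removed. The range includes 0 for RIC minus C, RIC+DE+PFD minus DE and RIC+DE+PFD minus DE+PFD.

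Other genes of the pathway stood on the same side of 0 in many cases. With edgeR 0 genes of any list passed in any of the 9 comparisons. Between DE and C, 10 of 10 tested mitochondrially encoded subunits lay above 0 (median 0.87, 5 at an unadjusted p under 0.05), as did 13 of 13 genes of fatty acid oxidation (median 0.61, 7 at an unadjusted p under 0.05), 16 of 17 genes of the citric acid cycle and pyruvate dehydrogenase (median 0.46) and 40 of 44 assembly factors (median 0.25). The 13 regulators of biogenesis had a median of -0.03, and 4 lay above 0. Between RIC+DE and DE the medians were -0.45 for assembly factors, -0.34 for the citric acid cycle and 0.20 for the regulators. Between DE+PFD+RIC and DE they were -0.98 for the mitochondrially encoded subunits, -0.69 for fatty acid oxidation, with 9 of 13 at an unadjusted p under 0.05, and 0.05 for the regulators.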

How the data were processed

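RNA from lung kept in RNAlater was poly(A)-selected and made into libraries with a strand-specific step, per the labels' protocols. The submitters' processing notes name FastQC 0.12.1, fastp 0.23.4, STAR 2.7.11b with the build GRCm39, featureCounts, R 4.4.1 and DESeq2. The authors deposited whole-number counts per gene, without scaling. Their annotation release, strand setting and treatment of multi-mapping reads: not given in the sources used here. Symbols, gene types and exon lengths came from an annotation of GRCm38, matched by gene identifier. Of 78275 rows, 51486 had a symbol, and these held 98.45% of counts.

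The main test was edgeR 4.0.16 in R 4.3.3 (its filter on low counts, TMM scaling, quasi-likelihood test, terms for group and date, all 24 libraries). An adjusted p is Benjamini-Hochberg over 17490 genes, threshold 0.05. Log2 CPM used a prior count of 2. With 3 libraries against 3, an exact permutation test cannot go below p = 0.1 and none was run. The test was checked on simulated data. Named members are, per comparison, the highest and lowest of each complex, those with the smallest p and a set of core subunits and isoforms, and the text prints a part of them picked with their values known. Values of the members are not all reported here. The members and lists were chosen with earlier results of these data known. Alternatives were DESeq2 1.42.0, its size factors, other filters, other treatments of the date, single months, the compared groups alone, a replicate block, removal of a length trend, limma 3.58.1 with voom weights, and each library left out.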

Additional observations from a re-analysis of the deposited data

Results flagged for a closer look

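The mean level of the members differed in direction between pirfenidone given without and with preconditioning. Each of the 3 DE+PFD libraries lay below the DE mean, by -0.61, -0.43 and -0.07 on the log2 scale, an average of -0.37. Each of the 3 RIC+DE+PFD libraries lay above the RIC+DE mean, by 2.03, 0.32 and 0.44, an average of 0.93. The value of 2.03 is that of RIC+DE+PFD 1. For this mean level the difference was not tested. Gene by gene, the interaction fitted with edgeR had a median of 1.80 over the 79 members (-0.05 over 17490 genes). In that fit 0 members and 0 of all genes passed an adjusted p of 0.05, and the smallest adjusted p of a member was 0.0742. An unadjusted p under 0.05 was reached by 67 members. The share of all genes at that threshold is not given here, so the count does not set the members apart. Without RIC+DE+PFD 1 the interaction's median over members was 0.36, and 68 of 79 members lay above 0 (share of all genes not given here). Without that library the median difference between RIC+DE+PFD and RIC+DE fell from 1.43 to 0.12. That between DE+PFD and DE went from -0.41 to -0.27. The interaction's median was 0.92 with the length trend removed and 0.23 with limma's quality weights. All RIC+DE libraries carry a March date, and 2 of the 3 RIC+DE+PFD libraries an October date.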

How the results depend on the processing

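The median of the members kept its sign in each alternative for DE minus C and for DE+PFD, RIC+DE, DE+RIC and DE+PFD+RIC minus DE, and for DE+PFD+RIC minus DE+PFD. It changed sign for RIC minus C, RIC+DE+PFD minus DE, RIC+DE+PFD minus DE+PFD and October minus March. The causes were not tested. Moves by more than the spread between libraries follow.

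With each library left out in turn the medians ran from -0.66 to -0.25 for DE+PFD minus DE, from -1.20 to -0.48 for RIC+DE minus DE, from -0.39 to 0.87 for RIC+DE+PFD minus DE, from -0.12 to 1.23 for RIC+DE+PFD minus DE+PFD, and from -0.32 to 0.35 for October minus March, with 0 to 18 members called for the last. Where 1 library is left in a group it is assumed to vary like the others. With limma and quality weights the medians were 0.23 (DE minus C), -0.15 (DE+PFD minus DE), -0.34 (RIC+DE minus DE), -0.083 (RIC+DE+PFD minus DE+PFD) and 0.44 (October minus March, 44 members called). Without DE 1 and RIC+DE+PFD 1, chosen after seeing the data, they were 0.24, -0.14, -0.38, -0.12 and 0.35 (20 called), and -0.28 for DE+PFD+RIC minus DE. Leaving out RIC+DE 1 and RIC+DE 3 as well, also chosen after seeing the data, gave 0.24, -0.14, -0.52, -0.12 and 0.35 (19 called), and -0.28. October libraries alone gave -0.40 for RIC+DE+PFD minus DE and -0.14 for RIC+DE+PFD minus DE+PFD, and March libraries alone gave 2.04 for the latter, with 53 members called on 1 library against 1. Removal of the length trend gave -0.52 for RIC+DE minus DE. The compared groups alone gave -0.40 for RIC+DE+PFD minus DE, and 53 members called for RIC+DE minus DE. With no filter on low counts, edgeR called 2 members for DE minus C, 2 for DE+PFD minus DE, 42 for RIC+DE minus DE, 2 for DE+RIC minus DE, 1 for RIC+DE+PFD minus DE, 11 for DE+PFD+RIC minus DE and 32 for RIC+DE+PFD minus DE+PFD. For the counts of called members in this paragraph, the shares of all genes called are not given here. These counts therefore do not set the members apart from other genes.

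With the replicate number as a block and the date term, the median for RIC+DE minus DE was -0.76, with 0 members called in each of the 9 comparisons. Deviations of same-numbered libraries from their group means correlated between -0.39 and 0.41 (16 of 84 pairs above 0.1). Same-numbered libraries often share a month, so these correlations cannot decide whether the numbers pair the libraries. Of 52 single differences printed, 8 changed sign in an alternative. Under the block, Sdha was 0.21, Cox8b 0.48 and Cox6a2 0.60 for RIC+DE minus DE, and Ndufs1 was 0.061 for DE+PFD+RIC minus DE. For RIC+DE minus DE, without DE 1 and RIC+DE+PFD 1, Sdha was 0.11, Cox8b 0.96 and Cox6a2 0.98, and Cox6a2 was 0.52 without the length trend, 0.83 with quality weights and 0.40 without the libraries with muscle genes as well. Ndufs1 for RIC+DE+PFD minus DE+PFD was 0.025 in October and 0.028 without the length trend. Leaving out libraries gave ranges of -0.22 to 0.095 (Sdha), -3.03 to 0.14 (Cox8b) and -0.40 to 0.67 (Cox6a2) for RIC+DE minus DE, -0.32 to 0.13 for Cox4i2 in DE minus C, -0.082 to 0.68 for Cox6a2 in RIC minus C and -0.15 to 0.44 for Cox6b2 in DE+PFD minus DE.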
